A study of Mus musculus with 8 samples.

Results

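The NMDA receptor subunit genes Grin1, Grin2a, Grin2b, Grin2c, Grin2d and Grin3a were examined in PrL tissue (read here as prelimbic cortex, an area of the medial frontal lobe) of C57 mice. They were chosen by symbol, with earlier results of these data known. All 6 were present among the 14765 genes of the count table and passed the filter on low counts, which kept 13911. The 4 SNI libraries (in pain research, spared nerve injury, a model of lasting neuropathic pain) were compared with 4 Sham libraries, the operated controls without the nerve lesion. The labels give the genotype C57 for both groups, and age, sex and the time after surgery are not given in the sources used here. Whether each library is 1 mouse or a pool is not given either, so p-values reflect library-to-library spread, part of which could be technical.

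The NMDA receptor is a glutamate-gated channel that lets calcium into the postsynaptic neuron when glutamate and a co-agonist, glycine or D-serine, bind while the membrane is depolarised. Every receptor contains the GluN1 subunit, encoded by Grin1, together with GluN2 subunits (Grin2a to Grin2d) that bind glutamate and set the channel's kinetics, or GluN3 subunits (Grin3a) that bind glycine and lower calcium entry. In cortex GluN2B dominates early in life and GluN2A joins it as synapses mature, and cortical NMDA receptors have long been studied for their part in plasticity and in persistent pain.

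Library totals ran from 14735602 to 19602487 counts, and the subunits were covered by 270 (Grin2d) to 6471 (Grin2b) counts per library. Over all genes, 698 of 13911 (5.02%) passed edgeR's quasi-likelihood test at a false discovery rate (FDR) of 0.05, 299 higher (2.15%) and 399 lower (2.87%) in SNI. Scaling by library totals in place of TMM gave 446 higher and 276 lower. All 7 of the excitatory neuron markers listed for the tissue were in the count table, which holds only genes counted in every library. They were led by the vesicular glutamate transporter Slc17a7 (Sham mean 1843 ± 94.4 CPM, SNI mean 1487 ± 299 CPM, SD, n = 4). Of the microglia markers, Cx3cr1, the fractalkine receptor, was nearly absent in all SNI libraries (30 to 36 counts, against 661 to 921 in Sham, log2 fold change -4.74), a difference the genotype label does not show. This difference follows the groups in every library. Its source therefore cannot be told apart from SNI in any comparison of the groups here. Markers of striatal medium spiny neurons, a cell type of a neighbouring region, were also present, 8 of 8, with summed levels of 214 to 430 CPM in Sham and 313 to 765 CPM in SNI.

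Promoter windows from RefSeq (GRCm38.p6) matched 3 of the 6 members: Grin1, Grin2c and Grin2d. Entries for Grin2a, Grin2b and Grin3a were missing. The windows are printed to show how differently the start regions of genes for 1 receptor are composed. Each is the 150 bases before the gene start, 5′ to 3′ on the gene's strand (minus for all 3), with GC boxes (GGGCGG on either strand) in capitals.
Grin1, chr2:25319188-25319337: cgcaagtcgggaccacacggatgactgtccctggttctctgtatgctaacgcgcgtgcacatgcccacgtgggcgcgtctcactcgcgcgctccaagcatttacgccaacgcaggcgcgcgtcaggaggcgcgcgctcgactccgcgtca
Grin2c, chr11:115267244-115267393: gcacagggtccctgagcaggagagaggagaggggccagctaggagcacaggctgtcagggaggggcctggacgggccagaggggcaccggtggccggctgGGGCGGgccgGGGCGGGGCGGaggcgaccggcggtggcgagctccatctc
Grin2d, chr7:45866682-45866831: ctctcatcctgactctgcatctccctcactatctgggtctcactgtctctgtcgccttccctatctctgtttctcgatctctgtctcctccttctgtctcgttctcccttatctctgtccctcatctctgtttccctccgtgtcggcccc
The Grin2c window held 3 GC boxes, of which the last pair overlap, and those of Grin1 and Grin2d held 0. In the whole promoter set, which was not limited to GRCm38, 28.6% of 32851 windows of this length held at least 1. The G and C content was 66.0% for Grin1, 76.0% for Grin2c and 54.0% for Grin2d. None of the 3 printed windows held the core of the cyclic AMP response element (TGACGT on either strand), found in 5.1% of the whole set. The Grin2d window lies inside the longer gene span that GENCODE M21 gives.

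Grin2a and Grin2b, the GluN2 subunits typical of forebrain, were lower in SNI: Grin2a fell by 25.8% and Grin2b fell by 24.8% as fitted. Grin1 and Grin2c missed the threshold. With TMM scaling both were lower in all 4 SNI libraries than in any Sham library, as were Grin2a, Grin2b and 7.02% of all genes. With counts scaled by library totals Grin2a alone stayed apart, among 4.51% of all genes, and Grin1, Grin2b and Grin2c overlapped. Grin2d and Grin3a overlapped with each of the 4 scalings. Of the 6 subunits 2 were called, both lower, and 0 were higher, against 2.87% of all genes tested called lower and 2.15% higher. The median log2 fold change was -0.34 over the members and 0.01 over all genes. In bulk tissue, fewer cells of a type and less RNA per cell cannot be told apart.

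Grin1 encodes GluN1, the obligatory subunit (chromosome 2, 25291181 to 25319187, minus strand, GRCm38). Its level was 382, 365, 373 and 335 CPM in Sham replicates 1 to 4 and 326, 226, 281 and 303 CPM in SNI replicates 1 to 4. Every SNI library lay below every Sham library, although with library totals SNI replicate 1 (332 CPM) exceeded Sham replicate 4 (330.4 CPM). SNI replicate 2 was the lowest of all. The log2 fold change was -0.36 ± 0.101 (SE, 95% interval -0.57 to -0.14), with an edgeR adjusted p of 0.0527. Grin1 passed in 6 of 18 alternative settings (adjusted p = 0.0487 with RLE scaling in edgeR and 0.0135 with DESeq2). Its log2 fold change was -0.21 without SNI replicates 2 and 3. The antisense gene Grin1os shares 1307 exonic bases with Grin1. The sources used here do not give the strand setting of the counting, so reads of the antisense gene cannot be told from those of Grin1.

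Grin2a encodes GluN2A, the subunit that marks mature synapses (chromosome 16, 9567898 to 9995560, minus strand). Sham replicates 1 to 4 held 184, 182, 189 and 171 CPM, and SNI replicates 1 to 4 held 127, 154, 127 and 130 CPM. The groups did not overlap with any of the 4 scalings, and within SNI replicate 2 stood above the other libraries. The log2 fold change was -0.43 ± 0.0820 (SE, 95% interval -0.61 to -0.26, edgeR adjusted p = 0.00864). Grin2a passed in each of the 18 alternative settings run, with log2 fold changes between -0.51 and -0.38.

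Grin2b encodes GluN2B, the subunit with slow deactivation that binds CaMKII (chromosome 6, 135713233 to 136173511, minus strand). Its level was 325, 371, 398 and 371 CPM in Sham replicates 1 to 4 and 325, 258, 259 and 260 CPM in SNI replicates 1 to 4. SNI replicate 1 lay just under Sham replicate 1, the lowest control, and above it with RLE, upper quartile or library-total scaling. The other SNI libraries were close together and far below. The log2 fold change was -0.41 ± 0.0934 (SE, 95% interval -0.61 to -0.21, edgeR adjusted p = 0.0212). Leaving out Sham replicate 3 took it past the threshold (edgeR adjusted p = 0.0848), as did leaving out SNI replicate 3 (0.0695), SNI replicate 4 (0.0504), or both SNI replicates 2 and 3 (0.144) or 2 and 4 (0.132).

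**Figure D1:**
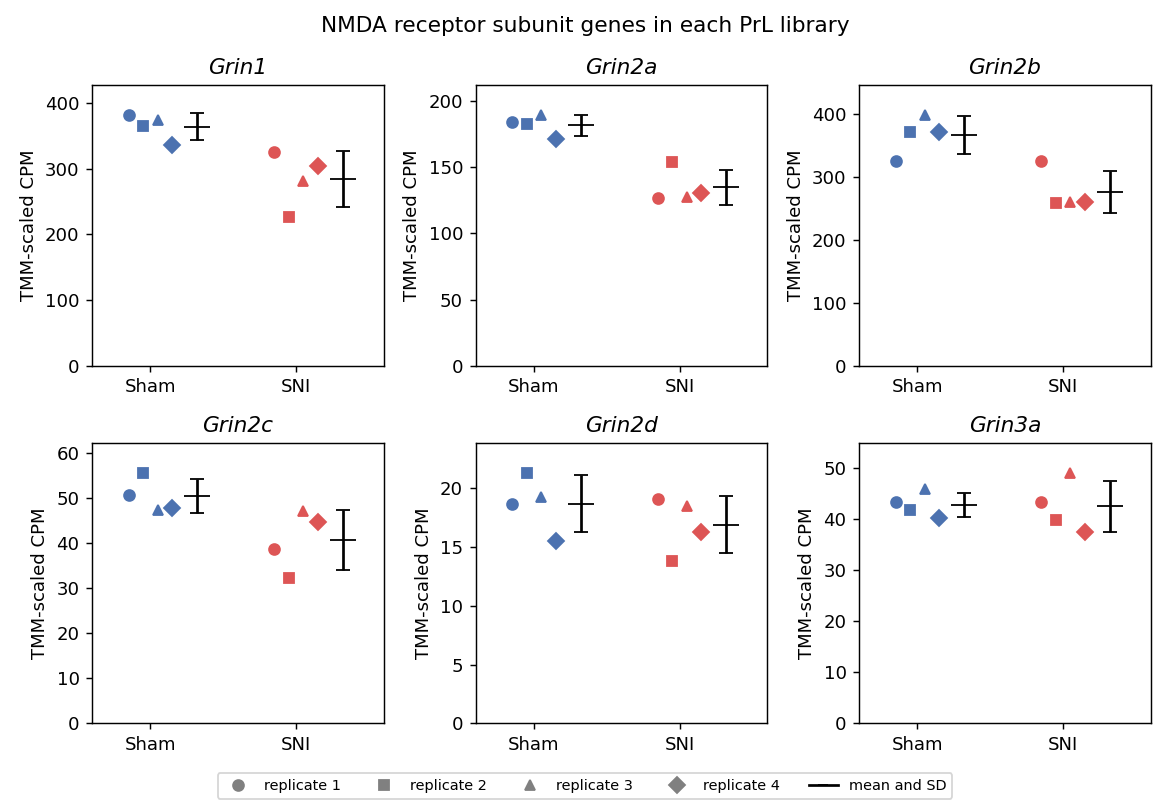
Level of each NMDA receptor subunit gene in TMM-scaled CPM (vertical axis, from 0) in 4 Sham (blue) and 4 SNI (red) libraries, with symbols for the replicate number and black bars for mean and SD. On this scale Grin1, Grin2a, Grin2b and Grin2c have all SNI points below all Sham points, while Grin2d and Grin3a overlap; with library totals only Grin2a is apart.

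Grin2c encodes GluN2C, known from cerebellar granule cells and, in cortex, from astrocytes (chromosome 11, 115249169 to 115267243, minus strand). It held 50.8, 55.7, 47.5 and 47.9 CPM in Sham replicates 1 to 4 and 38.7, 32.2, 47.1 and 44.7 CPM in SNI replicates 1 to 4. SNI replicate 3 lay close under the lowest control, and the groups overlapped with upper quartile or library-total scaling. Grin2c had a log2 fold change of -0.31 ± 0.109 (SE, 95% interval -0.54 to -0.08) and an edgeR adjusted p of 0.109, and it passed in 0 of the 18 alternative settings. The 7 astrocyte markers, all present, summed to 3064 to 3682 CPM in Sham and 2954 to 3839 CPM in SNI. None was called by edgeR or DESeq2 (1 at an unadjusted edgeR p under 0.05), where edgeR called 5.02% of all genes. The part of these markers in the Grin2c values was not tested. Of the cerebellar granule cell markers, Cbln1 and Cbln3 were present at a summed 9.58 to 18.9 CPM in Sham and 10.01 to 14.4 CPM in SNI, and Gabra6 is not analysed here.

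Grin2d encodes GluN2D, which in adult cortex is found mainly in interneurons (chromosome 7, 45831883 to 45878378, minus strand). With 275, 321, 305 and 270 counts in Sham and 308, 278, 278 and 270 counts in SNI it was the scarcest member. These correspond to 18.7, 21.3, 19.3 and 15.5 CPM in Sham and 19.1, 13.8, 18.5 and 16.3 CPM in SNI. High and low libraries occurred in both groups. Its log2 fold change was -0.15 ± 0.129 (SE, edgeR adjusted p = 0.550), and the 95% interval of -0.42 to 0.13 includes changes as large as those fitted for Grin2b. Inhibitory neuron markers, 7 of 7 present, summed to 973 to 1268 CPM in Sham and 896 to 1127 CPM in SNI. Of these, 0 were called by edgeR or DESeq2 and 0 had an unadjusted edgeR p under 0.05, where edgeR called 5.02% of all genes. Grin2d shares 643 exonic bases with the antisense gene Gm45441.

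Grin3a encodes GluN3A, a glycine-binding subunit that is most abundant in the juvenile brain and limits calcium entry (chromosome 4, 49661611 to 49845744, minus strand). Sham replicates 1 to 4 held 43.3, 41.8, 45.9 and 40.3 CPM and SNI replicates 1 to 4 held 43.4, 39.9, 49.1 and 37.5 CPM. The highest and the lowest value were both SNI libraries. For Grin3a the log2 fold change was -0.01 ± 0.0929 (SE, edgeR adjusted p = 0.959), with a 95% interval of -0.21 to 0.19, and its sign changed in 6 of the 18 alternative settings. Grin3b, the gene of the remaining GluN3 subunit, is not analysed here.

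**Figure D2:**
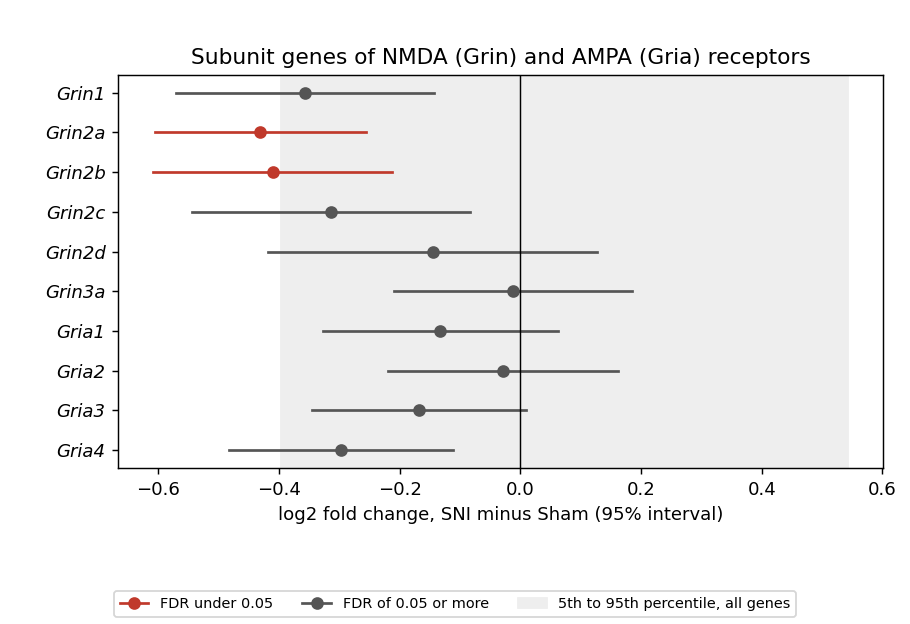
Log2 fold change of SNI minus Sham (horizontal axis) with its 95% interval for 6 NMDA and 4 AMPA receptor subunit genes, over a grey band from the 5th to the 95th percentile of all genes tested (-0.40 to 0.54). Grin2a (-0.43) and Grin2b (-0.41), in red, are the 2 with an FDR under 0.05 and lie below the band.

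The members can be ordered by level only per length. Per kilobase of annotated exon, Grin1 was highest in Sham at 37.5 ± 2.08 CPM per kb, followed by Grin2b at 14.7 ± 1.21, Grin2a at 10.1 ± 0.431, Grin2c at 10.03 ± 0.749, Grin3a at 3.49 ± 0.194 and Grin2d at 2.81 ± 0.363 (SD, n = 4 libraries each). Grin2a and Grin2c overlapped and did not differ beyond their spread. In SNI the levels were 29.3 ± 4.42 CPM per kb for Grin1, 11.1 ± 1.32 for Grin2b, 7.50 ± 0.720 for Grin2a, 8.07 ± 1.32 for Grin2c, 3.46 ± 0.411 for Grin3a and 2.54 ± 0.363 for Grin2d (SD, n = 4 libraries each), with Grin2a and Grin2c again overlapping. The place of Grin2c depends on the length used. Per kilobase of coding sequence Grin2c, at 13.6 ± 1.01 in Sham, lay well below Grin2a at 41.3 ± 1.76 and overlapped Grin3a at 12.6 ± 0.700 CPM per kb (SD, n = 4 libraries each). The annotated exons of Grin2a (17933 bases) and Grin2b (24842 bases) are far longer than their coding sequences (4392 and 4446 bases). Grin2c has 5037 bases of exon and 3717 of coding sequence.

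The mix of GluN2 subunits did not separate the groups. Per kilobase of exon, Grin2b made up 39.1 ± 2.49% of the summed Grin2a to Grin2d level in Sham and 37.9 ± 3.32% in SNI. Grin2a made up 26.9 ± 1.09% and 25.8 ± 3.74%, Grin2c 26.6 ± 1.78% and 27.6 ± 4.02%, and Grin2d 7.43 ± 0.739% and 8.66 ± 0.869% (SD, n = 4 libraries each). All 4 shares overlapped between Sham and SNI. Per kilobase of coding sequence they overlapped too, but their sizes were different. Grin2b then made up 58.0 ± 2.35% in Sham and 57.3 ± 3.40% in SNI, and Grin2a 29.1 ± 1.52% and 28.5 ± 3.60%. Grin2c made up 9.59 ± 0.863% and 10.2 ± 1.90%, and Grin2d 3.31 ± 0.391% and 3.95 ± 0.482% (SD, n = 4 libraries each).

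Ratios between subunits within a library do not depend on scaling, and 6 were compared. Each was tested two-sided with exact permutations of the group labels (70 assignments, smallest possible p 0.0286). The log2 ratio of Grin2a to Grin2b, the pair whose balance shifts during development, was -0.82, -1.03, -1.07 and -1.12 in Sham replicates 1 to 4 and -1.36, -0.74, -1.03 and -0.997 in SNI replicates 1 to 4. The SNI libraries held both extremes, and the means differed by -0.02 (exact permutation p = 0.971). Grin2a to Grin1 was tight in Sham (-1.05 to -0.97) and wide in SNI (-1.36 to -0.56), with a difference of -0.07 (exact permutation p = 0.771). That difference was -0.24 without SNI replicate 2, the library in which Grin2a was high and Grin1 low. The groups then did not overlap (exact permutation p = 0.0286, not adjusted). Of the 10 alternative settings run for this ratio, it was the 1 with a p under 0.05. Grin2b and Grin2c relative to Grin1 differed by -0.05 and 0.04 (exact permutation p = 0.743 for each).

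With all 8 libraries, Grin3a to Grin1 was the ratio whose groups did not overlap. Its log2 value was -3.14, -3.12, -3.03 and -3.06 in Sham and -2.91, -2.50, -2.52 and -3.01 in SNI replicates 1 to 4. SNI replicates 2 and 3 lay far above the controls and SNI replicate 4 close to them. The difference was 0.35 (exact permutation p = 0.0286, 0.171 adjusted over the 6 ratios), and it was 0.13 without SNI replicates 2 and 3. Grin2d to Grin1 differed by 0.22 (exact permutation p = 0.0571, 0.171 adjusted over the 6 ratios) with overlapping groups. After adjustment 0 of the 6 ratios passed, and 1 had an unadjusted p under 0.05.

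**Figure D3:**
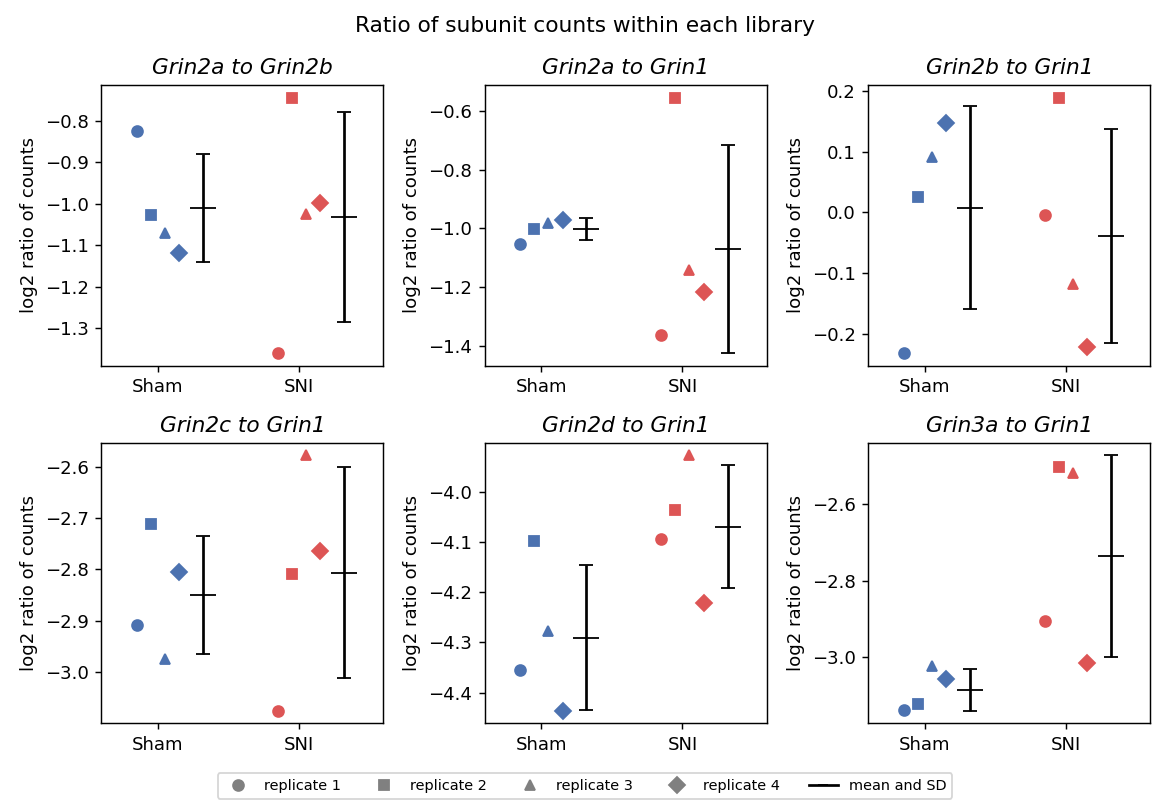
Log2 ratio of the counts of 2 subunit genes within each library (vertical axis) for 4 Sham (blue) and 4 SNI (red) libraries, with symbols for the replicate number and black bars for mean and SD. Only Grin3a to Grin1 has all SNI points above all Sham points, and SNI replicate 2 is the highest SNI point in the 3 upper panels.

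SNI libraries had a larger coefficient of variation than Sham libraries for each of the 6 subunits. In Sham and SNI it was 5.56% and 15.1% for Grin1, 4.26% and 9.59% for Grin2a, 8.24% and 11.9% for Grin2b, 7.47% and 16.3% for Grin2c, and 5.57% and 11.9% for Grin3a. Grin2d had 12.9% and 14.3%. Over the genes of the table, chi-square divided by its degrees of freedom ran from 10.01 to 28.8 between SNI libraries and from 7.54 to 12.6 between Sham libraries. The difference in spread was not tested, for the subunits or for all genes. SNI replicate 2 had the lowest value of all 8 libraries for Grin1, Grin2c and Grin2d and the highest SNI value for Grin2a. The same library had the lowest excitatory neuron marker sum, 1651 CPM, and the highest striatal marker sum, 765 CPM. SNI replicate 4 had nearly the same striatal sum, 754 CPM, with Grin1 at 303 and Grin2c at 44.7 CPM. Over the 7 excitatory markers, 2 were called lower (Nrn1 and Emx1), and their sums ran from 2394 to 2674 CPM in Sham and from 1651 to 2503 CPM in SNI. Over all genes edgeR called 2.87% lower and 2.15% higher, and DESeq2 called 1165 genes in either direction. Of the 8 striatal markers edgeR called 0 and DESeq2 1, with 4 at an unadjusted edgeR p under 0.05 and log2 fold changes from 0.59 to 1.91. Choroid plexus and ependymal markers, 3 of 4 present, summed to 4.99 to 6.94 CPM in Sham and 10.04 to 14.2 CPM in SNI, and 1 was called higher. Of 7 microglia markers, all present, Tmem119 (log2 fold change 0.48) and P2ry12 (0.59) were called higher and Cx3cr1 lower. The sums were 315 to 384 CPM in Sham and 311 to 478 CPM in SNI. They include Cx3cr1, which averaged 51.2 CPM in Sham and 1.93 CPM in SNI. Of 4 oligodendrocyte precursor markers 1 was called, Gpr17 (-0.62), with sums of 138 to 154 CPM in Sham and 118 to 156 CPM in SNI. Of 4 thalamic markers 1 was called, Prkcd (0.74), with sums of 30.6 to 35.4 CPM in Sham and 33.4 to 42.4 CPM in SNI. Oligodendrocyte markers, 6 of 6 present, varied widely within both groups, with sums of 2950 to 6493 CPM in Sham and 4132 to 7294 CPM in SNI. Endothelial markers, 4 of 4 present, summed to 158 to 194 CPM in Sham and 167 to 226 CPM in SNI. In each of these lists 0 were called by edgeR or DESeq2, where edgeR called 5.02% of all genes. The part of these markers in the subunit values was not tested.

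**Figure D4:**
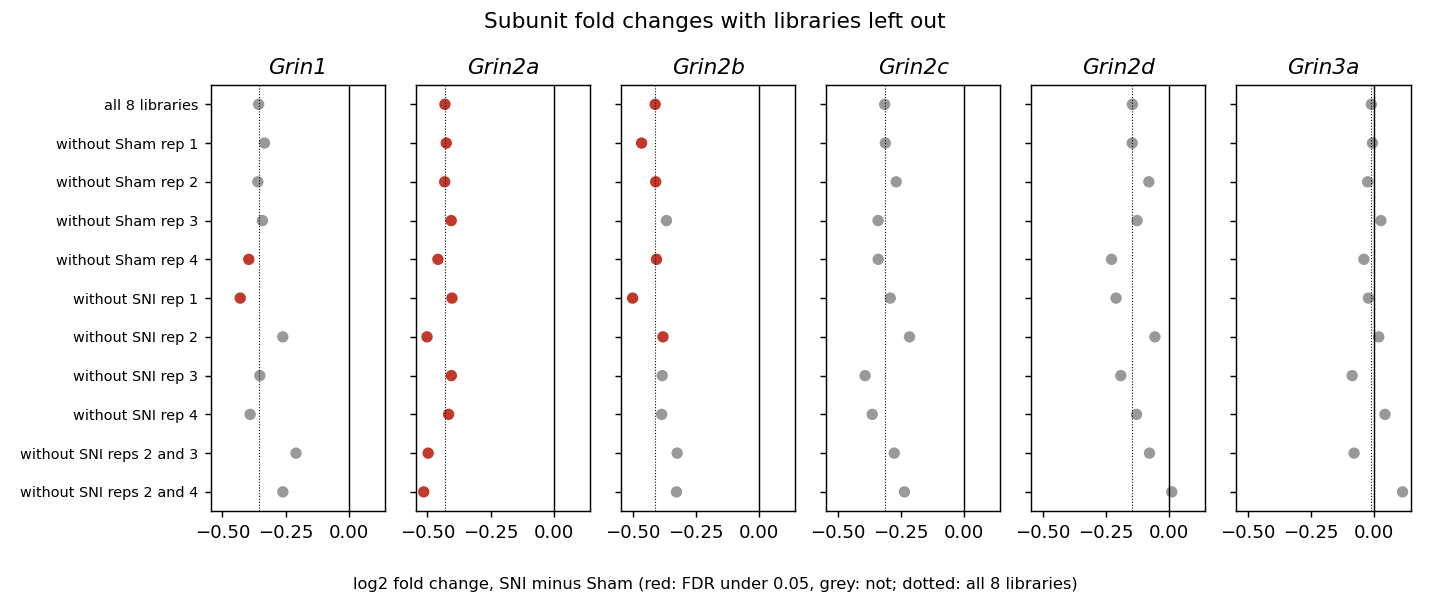
Log2 fold change of SNI minus Sham (horizontal axis) of each subunit with all 8 libraries and with libraries left out (rows), where red points have an FDR under 0.05 and grey points do not. Grin2a stays red in every row, Grin2b turns grey in 5, and Grin1 is red in 2.

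The longest run of identical bases shared by the annotated transcripts of any 2 members was 34, between Grin2b and Grin2c, and Grin2a and Grin2b shared at most 24. The remaining pairs shared 13 to 32 bases.

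Genes that work with the receptor were described in 5 lists by role, of which 78 genes were tested. Among them 6 were lower and 1 was higher at FDR 0.05, and the other 71 did not pass, where 2.87% of all genes were called lower and 2.15% higher. The median log2 fold change over the 78 was -0.14, against 0.01 over all genes. Genes of a list are not independent of each other, so these counts are a description.

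Scaffold and transport proteins hold the receptor at the postsynaptic density through its GluN2 tails. Of 22 measured, 3 fell and 0 rose, 20 had a negative log2 fold change, and the median was -0.22. Over all genes, 2.87% were called lower and 47.8% were negative. Dlg4, which encodes PSD-95, the main GluN2-binding scaffold, had 1022 ± 14.7 CPM in Sham and fell to 789.99 ± 92.4 CPM (SD, n = 4), with a log2 fold change of -0.37 (edgeR adjusted p = 0.0257). Shank2, a scaffold one layer deeper, and Dlgap2, which links PSD-95 to the Shank proteins, had -0.49 and -0.43. The groups did not overlap for any of these 3 genes, as in the 7.02% of all genes with SNI below Sham. Shank2 passed in all 18 alternative settings, while Dlg4 and Dlgap2 lost the call when any 1 of 4 libraries was left out, with highest edgeR adjusted p of 0.0766 and 0.0984 without Sham replicate 3.

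Kinases, phosphatases and signalling proteins modify the receptor or carry its calcium signal. Of 27 described, 2 fell and 0 rose, 20 were negative, and the median was -0.13, beside the same 2.87% and 47.8% over all genes. Prkca, a protein kinase C isoform, had a log2 fold change of -0.44. Fyn, the tyrosine kinase that phosphorylates GluN2 subunits, had -0.32. Their edgeR adjusted p values were 0.0133 and 0.0263. Camk2a, named here after its values were seen as the best known partner of GluN2B, averaged 2759 ± 400.4 CPM in Sham against 2436 ± 320.2 CPM in SNI (SD, n = 4). It missed the threshold, with a log2 fold change of -0.18 (edgeR adjusted p = 0.397). Prkca lost its call without Sham replicate 3 (edgeR adjusted p = 0.0544), and Fyn lost its call without any 1 of 4 libraries (highest 0.0823, without SNI replicate 3).

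The supply of co-agonist showed no common direction. Of 12 genes for making, moving or degrading serine and glycine, 6 were negative and 6 positive, with a median of 0.02. Phgdh, the first enzyme of serine synthesis, which in brain is mainly astrocytic, rose with groups that overlapped (not with library totals), from a mean of 65.9 ± 11.02 in Sham to 86.1 ± 6.28 CPM in SNI (SD, n = 4). Its log2 fold change was 0.39 (edgeR adjusted p = 0.0472). Its call ended without any 1 of 6 libraries (highest edgeR adjusted p = 0.155, without Sham replicate 3).

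Of 10 surface and cytoskeletal partners 0 passed by edgeR or DESeq2, where edgeR called 5.02% of all genes. The 1 member with an unadjusted edgeR p under 0.05 was Nefl, the light neurofilament protein, which binds GluN1 (log2 fold change -0.21, edgeR adjusted p = 0.154). Of 7 transcription factors tied to subunit genes in the literature of the field, 1 fell, against 2.87% of all genes called lower. This was Mef2c, an activity-regulated neuronal factor, with 840.2 ± 47.4 CPM in Sham and 637 ± 46.2 in SNI (SD, n = 4). Its groups did not overlap, as in the 7.02% of all genes with SNI below Sham. Mef2c had a log2 fold change of -0.40 (edgeR adjusted p = 0.0121). Its call ended without Sham replicate 3 (edgeR adjusted p = 0.0588). The other 6 factors, among them the silencer Rest, ranged from -0.06 to 0.29 and did not pass.

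**Figure D5:**
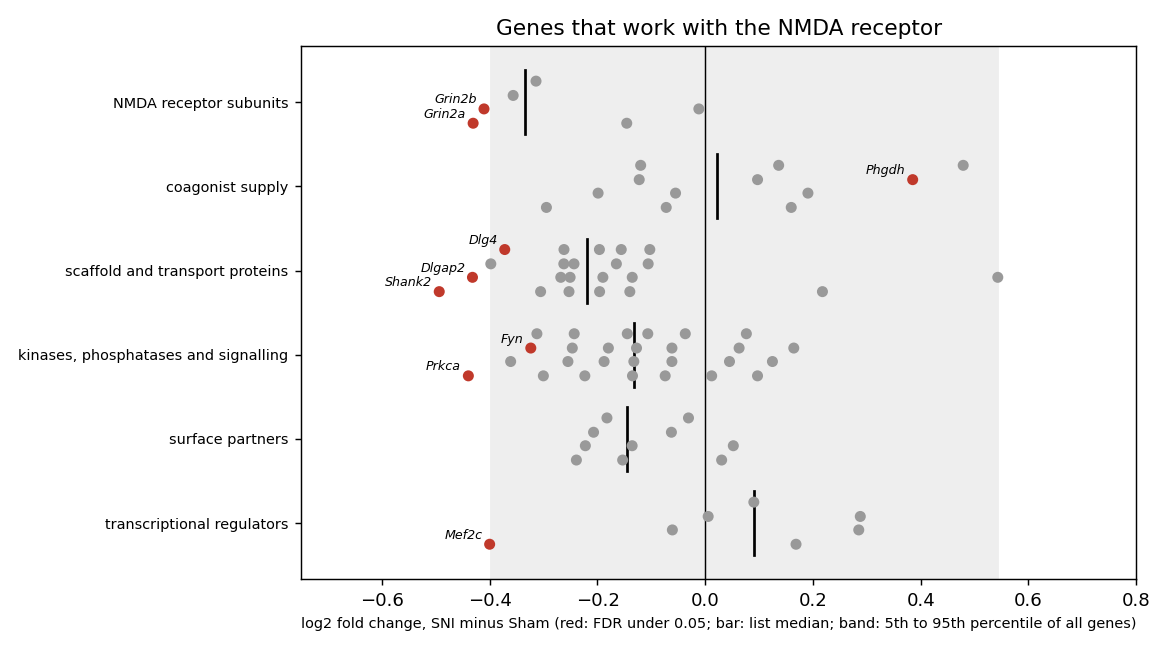
Log2 fold change of SNI minus Sham (horizontal axis) of the subunit genes and of 5 lists of genes that work with the receptor, 1 point per gene, with list medians as bars and the 5th to 95th percentile of all genes as a grey band. Red points have an FDR under 0.05: 2 subunits, 3 scaffold genes, 2 signalling genes, Mef2c and, on the positive side, Phgdh.

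AMPA receptor pore subunits, which carry the fast glutamate current beside the NMDA receptor, gave log2 fold changes of -0.13 for Gria1, -0.03 for Gria2, -0.17 for Gria3 and -0.30 for Gria4. Of these 4, edgeR called 0, against 5.02% of all genes, with 1 at an unadjusted p under 0.05, and DESeq2 called 1. Their median was -0.15, and the difference from the NMDA subunits was not tested.

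The genes whose profile over the 8 libraries was most like each subunit were found by the root mean square (RMS) difference between centred log2 CPM values among 13489 other genes. Closest to Grin2a were Sorbs2, a cytoskeletal adaptor (RMS difference 0.05, log2 fold change -0.40), Palmd (0.06, -0.48) and Ntm, a neuronal adhesion molecule (0.07, -0.31), all 3 at an FDR under 0.05. Closest to Grin2b were Fhod3, an actin-assembling formin (0.07, -0.48), Pak6, a kinase (0.07, -0.36), and Npy1r, a neuropeptide Y receptor (0.07, -0.37), also all under 0.05. Grin1 was most like Atf6b, Ptprn and Faah (0.03 to 0.04), none of which passed. Grin2c was most like Sppl2b, Cox10 and Fzd8 (0.08 each), Grin2d most like Rspo2, Otof and Ypel4 (0.06 to 0.07), and Grin3a most like Nr1h2, Slc35b2 and Commd7 (0.05 to 0.06), again with 0 of 9 at the threshold. These genes were picked as the closest of all compared, so they must lie near their subunit. Their fold changes follow from the choice too, because the profiles include the group difference. The subunits were chosen by symbol and not by this likeness. Among them the closest pair, Grin1 and Grin2c, differed by 0.15 and the farthest, Grin2a and Grin2d, by 0.27. By likeness to Grin1, Grin2c ranked 773, Grin2b 874, Grin2d 1096, Grin2a 3317 and Grin3a 4272 among all genes compared.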

How the data were processed

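The authors deposited a table of whole-number read counts per gene symbol for 8 libraries. Per the submitters' processing notes, fastp, HISAT2 and StringTie were used on GRCm38; the counting step, annotation and versions are not given in the sources used here. Per the labels' protocols, poly(A) RNA was converted to libraries with dUTP in the second strand. The smallest count is 1 in every library, so the table holds genes counted in all 8.

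Counts were tested with edgeR 4.0.16 in R 4.3.3 (filterByExpr, TMM, robust quasi-likelihood F-test, group as the only term, two-sided, Benjamini-Hochberg over all tested genes). The standard error is the log2 fold change divided by the square root of F. CPM values are TMM-scaled. Spans and lengths come from GENCODE M21 (GRCm38), which holds 14661 of the 14765 symbols. Recovery was tested on simulated data for SNI against Sham (13841 genes). At a log2 change of 0.5 it found 55.4% of 65 altered genes, at 1 it found 88.1% of 59, and at 2 it found 100% of 71. False calls were 12 of 171. The simulation gave both groups the same spread for each gene and drew the libraries independently. In the data SNI libraries varied more than Sham libraries for the subunits, so these rates may not carry over. Same-group libraries were checked for copies: chi-square divided by its degrees of freedom was at least 7.54 for each pair, far above counting noise.

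The members and lists were chosen with earlier results of these data known, and 1 listed gene is not reported here. Named genes are the members, the listed partners at FDR 0.05 (or the one of smallest p), the AMPA subunits and the 3 genes most like each member with a mean log2 CPM of at least 0. Alternatives were RLE, upper quartile or no scaling, no filter or 1 CPM in 4 libraries, DESeq2 1.42.0, limma 3.58.1 voom, a replicate block, and libraries left out.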

Additional observations from a re-analysis of the deposited data

Results flagged for a closer look

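Among 24 sets of 4 values (6 subunits and 6 ratios in each group), 2 held a library far from the other 3, where chance flags about 1 set in 20. Grin2a in SNI replicate 2 was 154 CPM, with 0.86 of the SNI range between it and the nearest library. Grin2b in SNI replicate 1 was 325 CPM, with 0.959 of the range between it and the next. Without SNI replicate 2 the log2 fold change of Grin2a was -0.50, and without SNI replicate 1 that of Grin2b was -0.50.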

How the results depend on the processing

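The 698 genes called became 258 to 858 with 1 library left out, 178 with SNI replicates 2 and 3 removed, 438 with SNI replicates 2 and 4 removed, and 1165 with DESeq2. The 2 subunits called became 1 to 3 with 1 library left out and 1 without either pair. The third was Grin1, which passed in 6 of the 18 settings. The 7 partner genes called became 1 to 9 with 1 library left out, 3 without SNI replicates 2 and 3, 15 with DESeq2 and 5 with the replicate block. The 1 ratio without overlap became 1 to 2 with 1 library left out and 2 without SNI replicates 2 and 3. The cause of these changes was not tested.

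Some values near 0 changed sign. The log2 fold change of Grin3a was 0.0129 with upper quartile scaling, 0.0370 with library totals, -0.0876 to 0.0423 with 1 library left out (above 0 in 3 of the 8 cases), and 0.112 without SNI replicates 2 and 4, where that of Grin2d was 0.0101. With 1 library left out, the group difference in log2 ratio ran from -0.117 to 0.0881 for Grin2a to Grin2b, from -0.239 to 0.0305 for Grin2a to Grin1, from -0.126 to 0.0147 for Grin2b to Grin1 and from -0.0328 to 0.133 for Grin2c to Grin1. The last was -0.0699 without SNI replicates 2 and 3.

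Replicate numbers did not pair the samples: deviations of same-numbered libraries correlated at -0.03, -0.01, -0.08 and -0.15. No library correlated best with the library of its own number in the other group. With the replicate block 518 genes and the same count of 2 subunits passed.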
